A study of Danio rerio with 12 samples.

Results

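Narrow open regions are consensus regions of accessible chromatin less than 500 bp wide, and 1400 of the 80059 regions in the deposited tables of 2 comparisons were that narrow. They were chosen by width alone, each table by its own coordinates, on chromosomes 1 to 25 without chromosome 4. The TDCIPP table held 89 of them among 35040 regions (0.254%), and the DAC table held 1311 among 45019 (2.91%). Accessibility was measured by ATAC-seq in wild-type AB/Tuebingen zebrafish, from cells of whole embryos at 6 hours post fertilization. Newly fertilized eggs had been placed in 3.12 µM TDCIPP, an organophosphate flame retardant, or in 100 µM decitabine (DAC), which inhibits DNA methylation, and each compound had its own controls in 0.1% DMSO. Each of the 4 groups had 3 libraries. Nothing in the labels says whether these were separate clutches, so the p-values of the authors reflect only how these libraries varied, which may be technical.

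In ATAC-seq, the transposase Tn5 inserts adapters where DNA is not wrapped in nucleosomes or otherwise covered. Active promoters and enhancers hold such open stretches, and a wide region may join several neighbouring ones. How wide a region is called also depends on how many reads are at hand and on the peak caller. No genome or annotation of GRCz11, the build of the coordinates, was used here, so regions are given by position without genes or sequence.

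The files hold group means, folds and p-values of a DiffBind comparison and no value of a single library, so no SD can stand beside a level. A level is the mean normalized read count of a region on the log2 scale, and the log2 fold is the treated minus the DMSO level. Summed over all regions, the mean library held 7753700 normalized reads for TDCIPP, 7910862 for its DMSO controls, 2065074 for DAC and 1880934 for its DMSO controls. Narrow regions took 0.290% of these reads for TDCIPP and 1.49% for DAC. Much of the TDCIPP share lay in 1 region, chr2:14671092-14671578, with 10885 reads in the mean library, where the median narrow region held 67.2.

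The tables reached down to different widths. All 89 narrow regions of the TDCIPP table were at least 455 bp wide (median 484 bp), and none narrower was listed on any sequence. Narrow regions of the DAC table began at 349 bp (median 459 bp), and 135 of the 1311 were under 400 bp. At 349 bp the one with the higher level was chr13:11762949-11763297, with 3.97 after DAC and 3.49 in DMSO in the authors' deposited table. At 455 bp it was chr18:30064696-30065150, with 8.83 after TDCIPP and 8.78 in DMSO in the authors' deposited table.

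Values just inside and just outside the width limit are given without a test. The last 10 bp below 500 bp held 33 TDCIPP regions with a median level of 6.07 and a median log2 fold of 0.06, of which 22 were positive. The first 10 bp from 500 bp up held 52, with 5.93 and 0.04, of which 28 were positive. For DAC the same windows held 184 regions with a median level of 3.58 and a median log2 fold of 0.23, 123 of them positive, and 188 regions with 3.72 and 0.25, 146 of them positive. The DAC medians on both sides were close, while the share of positive folds was larger just outside (77.7%) than just inside (66.8%).

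Narrow regions held fewer reads than wider ones but more reads per base. Their median level was 6.07 for TDCIPP (67.2 normalized reads) and 3.69 for DAC (12.9 reads). On the same chromosomes, the 27299 and 34265 regions from 500 bp to under 4 kb had median levels of 6.40 and 4.18. Divided by width, the order turned, with medians of 139 reads per kb in narrow and 71.7 in wider TDCIPP regions, and of 28.3 and 15.1 in DAC regions.

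Single narrow regions differed widely in level. TDCIPP levels ran from 4.20 to 13.41, and 12 of the 89 reached 8. The top one, chr2:14671092-14671578, had 13.52 after TDCIPP and 13.28 in DMSO in the authors' deposited table, which is 11747 and 9947 normalized reads in 487 bp. At that place the DAC table lists a region 3103 bp wide, whose level was 11.42 and log2 fold 0.03 by the authors' deposited table. Next by level came chr2:4084492-4084989 (9.69 after TDCIPP, 9.96 in DMSO) and chr18:20176299-20176765 (9.34 and 9.55) in the authors' deposited table. Both of these overlapped a DAC region of 595 and 503 bp with a positive log2 fold there, 0.61 and 0.55 in the authors' deposited table, neither passing (unadjusted p = 0.387 for each).

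In the DAC table, 3 narrow regions stood above all other narrow ones in level. Like 904 of the 1311 narrow DAC regions, they overlapped no region of the TDCIPP table. They were chr20:4608780-4609172 (10.25 after DAC, 10.45 in DMSO), chr10:16789037-16789522 (9.92 and 10.11) and chr24:38292411-38292855 (9.21 and 9.41) in the authors' deposited table. The next narrow region, chr16:20968165-20968557, had a level of 7.62. All 3 log2 folds were between -0.20 and -0.19 by the authors' deposited table, not passing (unadjusted p from 0.680 to 0.699). By contrast, positive folds were found in 62 of the 69 narrow DAC regions whose level reached 6, these 3 included among the 69. Wider DAC regions (500 bp to under 4 kb) with levels from 5.44 to 10.35 had 89.1% positive folds, and all DAC regions 59.8%.

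At the low end, chr25:856060-856505 held 0.986 normalized reads after DAC and 1.97 in DMSO, and chr18:6151315-6151795 held 21.4 after TDCIPP and 15.3 in DMSO, from the authors' deposited tables. Both were picked for their low level.

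**Figure D1:**
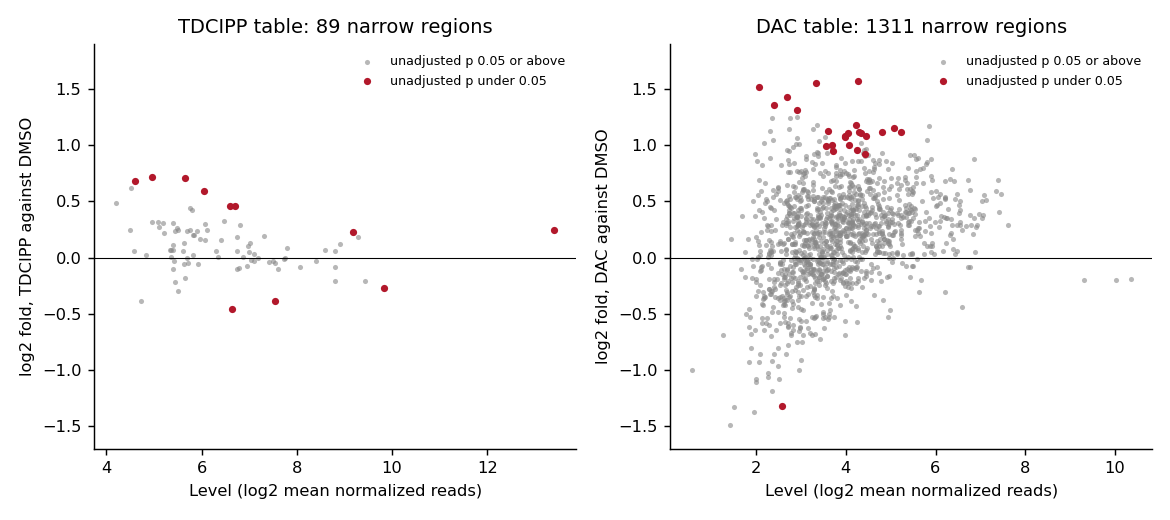
Each point is a narrow region, with its level (log2 mean normalized reads, x axis) and its log2 fold against the DMSO controls of its own comparison (y axis), as deposited by the authors; red points have an unadjusted p under 0.05. TDCIPP folds lie between -0.46 and 0.72 and DAC folds between -1.49 and 1.57, and 3 DAC regions of very high level lie just below 0.

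Whether either compound changed accessibility at narrow regions was read from the adjusted p of the authors, taken over each whole table. After TDCIPP, 0 of 89 narrow regions passed an adjusted p of 0.05 in the DiffBind table, where 1.28% of all regions passed, 0.362% with higher and 0.916% with lower accessibility. Below a level of 5.71 every region of that table has an adjusted p of 1, which holds for 33 of the 89, so that 56 could have passed. A count of 0 among 89 allows a share of up to 3.37%. That limit also counts the 33 that could not pass, so the limit for the 56 alone is higher. Adjustment recomputed over the whole table also called 0. At an unadjusted p under 0.05 there were 11 (12.4%, against 9.93% of all regions), 8 with a positive fold (4.77% of all regions) and 3 with a negative one (5.16%).

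The TDCIPP regions with the smallest p are named as not passing. With a positive fold, chr12:46733347-46733801 had 6.32 after TDCIPP and 5.73 in DMSO (unadjusted p = 0.00703, adjusted p = 0.173) in the authors' deposited table. Levels were 5.97 and 5.27 at chr5:43886458-43886943, and 5.27 and 4.55 at chr14:7374600-7375095, in the authors' deposited table. These last 2 had the largest folds of the 89, 0.71 and 0.72 on the log2 scale, but their levels lie below 5.71 and their adjusted p in the authors' deposited table is 1. Smaller positive folds stood at chr17:37872172-37872653 (0.46) and chr25:9557085-9557552 (0.23) in the authors' deposited table. With a negative fold, chr18:37312770-37313265 had 7.34 after TDCIPP and 7.74 in DMSO and the smallest p of the 89 (unadjusted p = 0.00437, adjusted p = 0.134) in the authors' deposited table. It was followed by chr2:4084492-4084989 (-0.27) and chr1:26673343-26673817 (-0.46) in the authors' deposited table. Then came chr6:56302027-56302519 and chr18:20176299-20176765, both at -0.21, with an unadjusted p of 0.055 and 0.0608 in the authors' deposited table, neither under 0.05.

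After DAC, 0 of 1311 narrow regions passed in the DiffBind table, where 0% of all regions passed and every narrow region has an adjusted p of 1. DAC regions of every other width have the same adjusted p, so 0 calls was set for any part of them. Recomputed adjustment called 0 as well. The counting limit for 0 among 1311, a share of 0.229%, thus does not bound how many narrow regions changed. At an unadjusted p under 0.05 there were 24 (1.83%, against 1.01% of all regions), 23 with a positive fold (0.755% of all regions) and 1 with a negative one (0.251%). Their widths ran from 386 to 498 bp and their levels from 2.06 to 5.22, so that none was among the regions with the most reads.

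The largest DAC fold also had the smallest p. It stood at chr23:9718009-9718407, with 28.6 normalized reads after DAC and 9.65 in DMSO, or 1.57 on the log2 scale (unadjusted p = 0.00128, adjusted p = 1) in the authors' deposited table. At chr7:1737116-1737577 there were 15.0 and 5.13 reads, or 1.55 on the log2 scale, from the authors' deposited table. Further positive folds named were chr1:30776724-30777112 (1.15), chr16:26648168-26648630 (1.13) and chr13:43479902-43480399 (1.11) in the authors' deposited table. The single negative one below that p, chr3:26080725-26081221, had 3.41 reads after DAC and 8.52 in DMSO (unadjusted p = 0.0381) in the authors' deposited table. Other negative folds, none with an unadjusted p under 0.05, stood at chr23:37288051-37288522 (-1.37), chr5:14716692-14717157 (-1.19) and chr14:2289101-2289490 (-1.08) in the authors' deposited table. At chr9:41886419-41886867, the last one named, reads were 5.13 after DAC and 10.3 in DMSO. Each of these 5 regions held at most 7.73 normalized reads in the mean library.

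Folds of narrow regions were more often positive than negative in both tables. After TDCIPP, 59 of 89 were positive (66.3%, 95% Clopper-Pearson interval 55.5 to 76.0), against 50.3% of all regions, and the median log2 fold was 0.07 with quartiles of -0.03 and 0.25. After DAC, 924 of 1311 were positive (70.5%, interval 67.9 to 72.9), against 59.8% of all regions, and the median was 0.23 with quartiles of -0.06 and 0.47. These intervals cover counting error only, and the regions of a table share the same libraries.

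Level separated the folds, in opposite order in the 2 tables. Below the median level of narrow regions, 368 of 651 DAC folds were positive (56.5%), and at or above it 556 of 660 (84.2%). For TDCIPP it was 34 of 44 below the median level (77.3%) and 25 of 45 at or above it (55.6%). Regions from 500 bp to under 4 kb had the same orders, in the 10 classes of level used below. Their positive DAC folds were 25.8% in the lowest class and 89.1% in the highest. For TDCIPP these shares were 59.0% and 27.3%. By chromosome, the median DAC fold of narrow regions was above 0 on all 24, from 0.04 on chromosome 17 to 0.40 on chromosome 22. For TDCIPP it was above 0 on 17 of 24, with 1 to 6 narrow regions on each.

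Median DAC folds went down step by step with width, with narrow regions at one end of that order, and TDCIPP folds did so only in part. Median DAC log2 folds were 0.31 from 349 bp to under 400 bp, 0.24 up to 450 bp and 0.22 up to 500 bp. They were 0.17 up to 600 bp, 0.14 up to 1 kb, 0.08 up to 2 kb and -0.04 from 2 kb to under 4 kb. TDCIPP medians were 0.07 in narrow regions, 0.08 up to 600 bp, 0.05 up to 1 kb, -0.01 up to 2 kb and -0.07 from 2 kb to under 4 kb, so the class next to the narrow one had the highest. Weighted to the levels of the narrow regions, these wider TDCIPP classes had 0.05, 0.04, 0.00 and 0.03, so that the widest class turned positive. The wider DAC classes weighted in the same way had 0.19, 0.12, -0.03 and -0.14. The narrow DAC classes so weighted had 0.30, 0.22 and 0.23, so the last 2 no longer went down with width. Quartiles of neighbouring width classes overlapped in both tables.

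**Figure D2:**
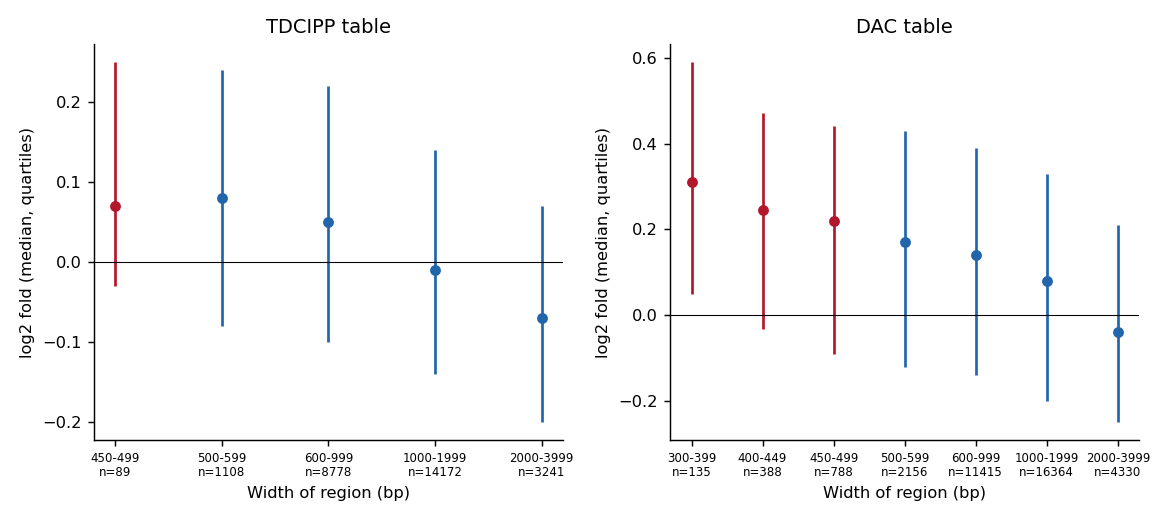
Median log2 fold with quartiles (y axis) by width of the region (x axis, bp; n is the number of regions) in the TDCIPP and the DAC table, on chromosomes 1 to 25 without 4. Red classes are narrow regions and blue classes wider ones; the DAC median goes from 0.31 in the narrowest class to -0.04 in the widest, and the TDCIPP median from 0.07 to -0.07.

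Narrow regions were next set beside regions from 500 bp to under 4 kb at like level, in 10 classes of level with about equal numbers of narrow regions. In the DAC table the narrow median was the higher one in 10 of 10 classes, by 0.03 to 0.28 on the log2 scale. Weighted to the levels of the narrow regions, wider DAC regions had a median log2 fold of 0.02 and 51.2% positive folds, against 0.23 and 70.5%. This difference was absent at like density, where level is no longer matched, because at equal reads per kb a wider region holds more reads in total. Which of level and density goes with the folds was not tested. Matched on level per kb, wider DAC regions had a median of 0.24 and 75.04% positive folds, and the narrow median was the higher one in 2 of 10 classes, with differences from -0.08 to 0.05. Along the classes of density both kinds of region went from negative to positive medians, the narrow ones from -0.11 to 0.38 and the wider ones from -0.16 to 0.39. The share with an unadjusted p under 0.05 was 1.83% in narrow regions, against 0.972% of wider ones at like level and 0.715% at like density. For TDCIPP it was 12.4% in narrow regions, against 10.1% of wider ones at like level and 15.3% at like density, where the order turned.

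For TDCIPP the difference was small and had the same sign in both matchings. Wider regions had a median log2 fold of 0.01 and 50.6% positive folds at like level, and -0.02 and 44.3% at like density, against 0.07 and 66.3% in the 89 narrow regions. The narrow median was the higher one in 10 of 10 classes each time, though a class held only 8 or 9 narrow regions and 3 of the classes of level differed by 0.01. The share of positive folds was less even. It was lower in narrow than in wider regions in level classes 3, 4, 8 and 9, counted from the lowest, and higher in the others. At like density it was lower in class 9 only. Sizes of the folds, taken without sign, had medians at like level of 0.16 in narrow and 0.15 in wider regions after TDCIPP. After DAC they were 0.33 and 0.29. The narrow median size was the larger one in 6 of 10 classes of level after TDCIPP and in 8 of 10 after DAC. Narrow and wider regions were not compared by a test, because regions are not replicates and no library values were at hand.

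**Figure D3:**
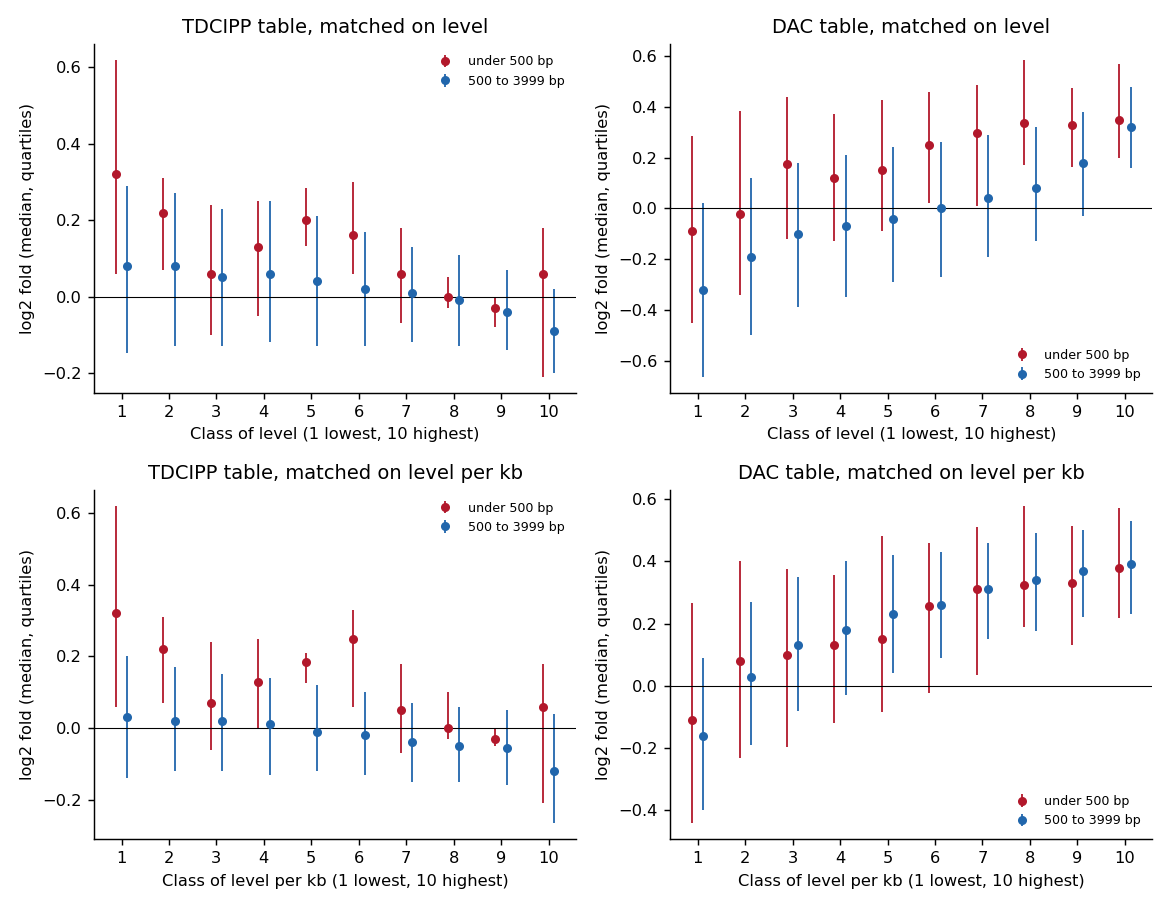
Median log2 fold with quartiles (y axis) of narrow regions (red) and regions from 500 bp to under 4 kb (blue) in 10 classes (x axis) of level (top row) or level per kb (bottom row), for TDCIPP (left) and DAC (right). Red DAC medians lie above the blue ones in 10 of 10 classes of level and in 2 of 10 classes of level per kb.

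Most narrow regions had no other narrow one nearby. With gaps of at most 20 kb joined, 1178 of the 1311 DAC regions were single, 51 pairs and 6 groups of 3 formed, and longer runs of 6 and 7 lay on chromosomes 1 and 6. TDCIPP gave 85 single narrow regions and 2 pairs. The nearest region of any width was a median of 7308 bp from a narrow DAC region and 10235 bp from a narrow TDCIPP region, against 8815 and 10281 bp for wider ones.

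Both runs, described because of their values, had positive DAC folds throughout and partly regular spacing. The run at chr6:24249459-24285873 held 7 narrow regions and 1 of 763 bp. Starts of its first 6 regions followed each other at 4681, 4652, 4681, 4652 and 4641 bp. The first 6 narrow ones had levels of 5.69 to 6.28 after DAC and of 4.98 to 5.40 in DMSO by the authors' deposited table, and their unadjusted p ran from 0.0626 to 0.247. The last, chr6:24285420-24285873, had 4.75 and 3.63 by the authors' deposited table (unadjusted p = 0.0253). Not one region of the TDCIPP table lay in this stretch.

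The run at chr1:30772069-30819115 held 6 narrow regions and 1 wider one, all with a positive DAC fold. Levels of the 6 narrow ones were 4.53 to 5.53 after DAC and 3.52 to 4.42 in DMSO, and their log2 folds ran from 0.50 to 1.18 around a median of 0.85, by the authors' deposited table. An unadjusted p under 0.05 was found in 3 of these 6 and in 1 of the 7 on chromosome 6, beside 1.01% of all DAC regions. Nothing is read from this, because the runs, though found by position, are described because of their values. Past a gap of 76.1 kb without narrow regions, 3 more narrow ones up to 30928239 had positive folds, 2 of them with an unadjusted p under 0.05. The gap was not empty, because wider DAC regions lay in it. Their log2 folds were 1.06 at chr1:30847714-30848844, also below that p, 0.55 at chr1:30867865-30869576 and 0.92 at chr1:30877084-30877982 in the authors' deposited table. Another wider region, chr1:30919798-30920677, lay among the 3 narrow ones past the gap and had 0.76. Positive folds in this stretch were thus not particular to narrow regions. On the other side, the nearest narrow region, chr1:30612206-30612671, stood 159 kb away with a log2 fold of 0.23 by the authors' deposited table (unadjusted p = 0.692). Starts of the 6 narrow ones of the run were 4655, 18677, 4660, 13980 and 4648 bp apart, close to whole multiples of the first steps on chromosome 6, while those of the 3 further ones were not. In the whole DAC table, 7 pairs of narrow regions had starts in the 100-bp class from 4600 bp, the fullest class below 10 kb, and 6 of the 7 lay in these runs. The TDCIPP table held 6 regions on chromosome 1 from 30772069 to 30928239, all of 862 bp or more, with log2 folds from -0.28 to 0.25 in the authors' deposited table, 1 of them positive. The DAC steps above ran from start to start, whereas ends were taken for these TDCIPP regions. Their widths were 862 to 1250 bp, so steps between their starts differ from those between their ends. Their ends followed each other at 13985, 18636, 9325, 29868 and 29000 bp. This is 3.01, 4.0, 2.0, 6.42 and 6.23 times 4653.5 bp, the median of the 6 steps of 4641 to 4681 bp between narrow DAC regions of the runs. Without both runs, 1.54% of narrow DAC regions had an unadjusted p under 0.05. Without the 3 further regions as well, it was 1.39%, and 70.1% had a positive fold. How reads with several matches were placed is unknown here, and its part in the levels of evenly spaced regions was not tested.

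**Figure D4:**
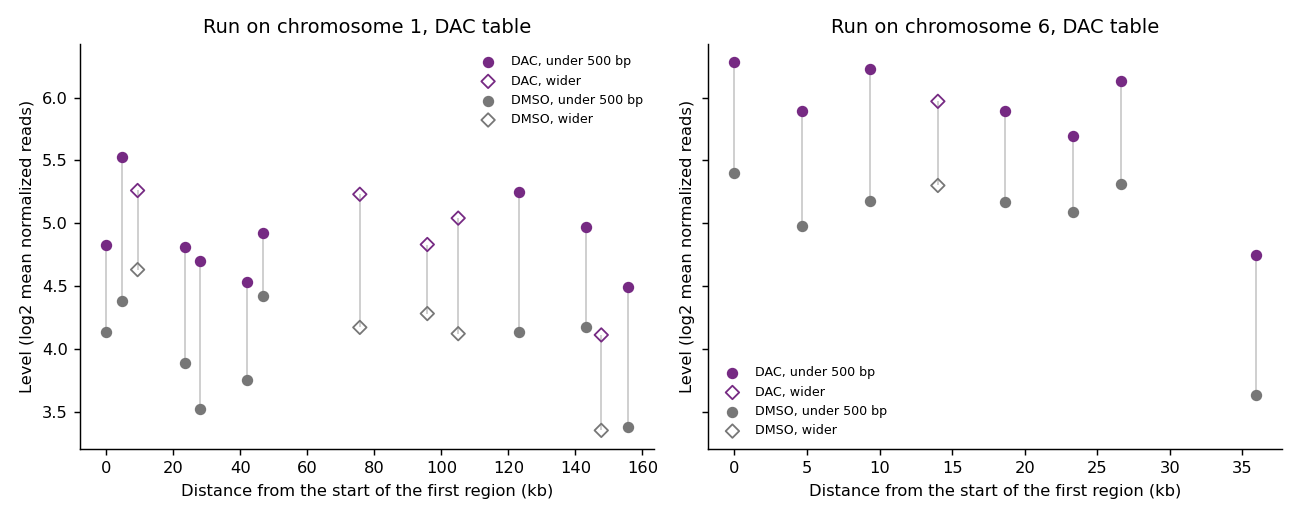
Level after DAC (purple) and in DMSO (grey) as log2 mean normalized reads (y axis) for each DAC-table region of the runs on chromosomes 1 and 6, by distance from the start of the first region (x axis, kb); filled circles are narrow regions, open diamonds wider ones, and lines join the same region. On chromosome 1 the regions past the run, up to 30928239, are drawn too, and all 14 there and all 8 on chromosome 6 lie higher after DAC.

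Narrow regions of one table were matched to the other table where at least 1 base was shared. Of the 89 TDCIPP regions, 54 (60.7%) overlapped a DAC region, against 73.2% of wider ones, and 20 of those DAC regions were narrow too. Of the 1311 DAC regions, 407 (31.0%) overlapped a TDCIPP region, against 57.5% of wider ones, and 287 lay wholly inside it. A wider region can meet the 1-base rule more easily, and level was not matched here. With at least 50% of the region's own bases shared, it was 60.7% of narrow and 66.8% of wider TDCIPP regions. For DAC regions it was 30.4% and 55.4%. The TDCIPP regions at these 407 places had a median width of 855 bp, so that most places narrow in the DAC table were not narrow in the TDCIPP table.

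DAC folds were positive at most places where a narrow TDCIPP region overlapped a DAC region, in 50 of 54 cases (92.6%), with a median of 0.34. For wider TDCIPP regions the same share was 74.6% and the median 0.22. In the other direction, TDCIPP folds at the 407 places had a median of 0.00 and 198 were positive (48.6%). Narrow and wider DAC regions with an overlap had median log2 folds of 0.28 and 0.22, and 76.7% and 74.6% of these folds were positive. The 904 narrow DAC regions without an overlap had a median of 0.21 and 67.7% positive folds, and wider ones without an overlap had -0.12 and 36.6%. Neither level nor density was matched in these values.

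At 2 of the 407 places (0.491%) the TDCIPP region itself passed an adjusted p of 0.05, against 296 of 19699 places at wider DAC regions and 1.28% of the whole TDCIPP table. The 2 are named after their values were seen. The region chr9:20718167-20720831 had a TDCIPP log2 fold of 0.76 (adjusted p = 0.00278), and the narrow DAC region inside it, chr9:20718216-20718686, had -0.06, from the authors' deposited tables. At chr7:6441242-6441930 the TDCIPP value was -0.34 (adjusted p = 0.0445), and the narrow DAC region chr7:6441487-6441880 had 0.69, from the authors' deposited tables. The unadjusted p of these DAC values was 0.991 and 0.499. An unadjusted p under 0.05 in both tables was found at 0 of the 407 and 0 of the 54 places. At wider regions these shares were 0.0761% and 0.0701%. Of the narrow regions with such a p in their own table, 6 of the 24 DAC and 7 of the 11 TDCIPP regions had an overlap. Among all narrow regions, 31.0% of the DAC and 60.7% of the TDCIPP regions had one.

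The 20 places that were narrow in both tables had nearly the same borders, with starts a median of 9 bp apart and ends 13 bp apart. Levels were 1.39 to 3.12 higher in the TDCIPP table. After DAC all 20 folds were positive, from 0.01 to 0.80 with a median of 0.32, against 59.8% of all DAC regions. These 20 are among the 54 overlaps above, where 50 DAC folds were positive, and level was not matched. After TDCIPP the folds ran from -0.10 to 0.30 with a median of 0.09, of which 13 were positive and 7 negative. Of all TDCIPP regions, 50.3% had a positive fold. An unadjusted p under 0.05 was found at 1 of the 20 after TDCIPP (9.93% of all regions) and at 0 after DAC (1.01% of all regions), where the smallest was 0.0863.

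The place with the highest levels in both, chr24:34266409-34266880, had 9.38 after TDCIPP and 9.20 in DMSO, and 7.05 after DAC and 6.77 in DMSO, from the authors' deposited tables. Next was chr14:32725196-32725666 with 8.75 and 8.83 for TDCIPP and 7.01 and 6.66 for DAC, from the authors' deposited tables. Folds thus had the same sign on chromosome 24 and opposite signs on chromosome 14. At chr7:26432147-26432625 the log2 folds were 0.12 after TDCIPP and 0.29 after DAC, from the authors' deposited tables. At chr25:9557085-9557552, the 1 place with an unadjusted p under 0.05, they were 0.23 (unadjusted p = 0.0298) and 0.22 (unadjusted p = 0.693), from the authors' deposited tables. At chr24:30948096-30948579 they were -0.02 and 0.19, from the authors' deposited tables.

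**Figure D5:**
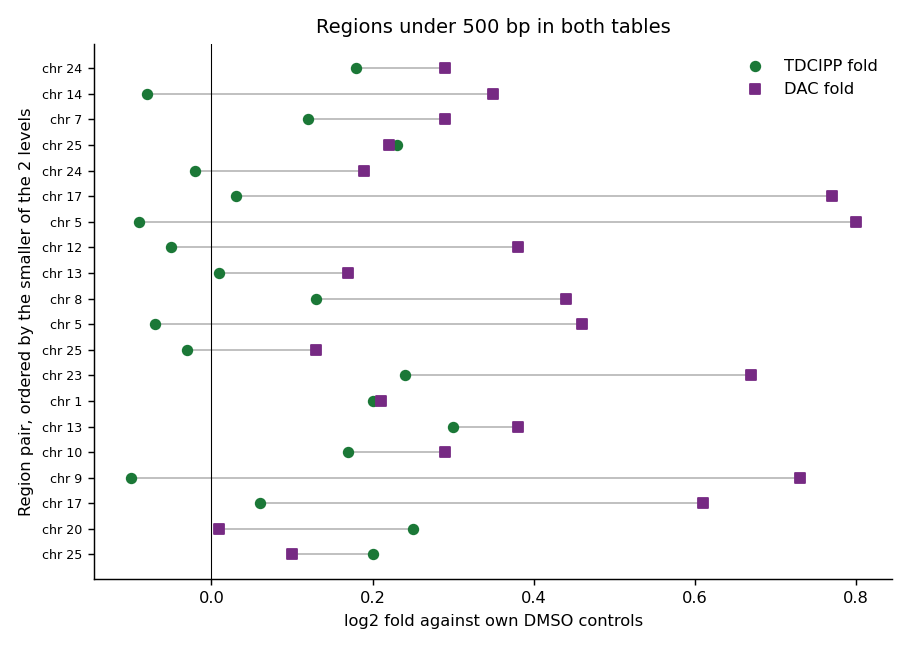
Log2 fold against the own DMSO controls (x axis) after TDCIPP (green circles) and DAC (purple squares) for the 20 places narrow in both tables (y axis, named by chromosome, ordered by the smaller of the 2 levels with the highest on top). DAC folds lie between 0.01 and 0.80, and TDCIPP folds between -0.10 and 0.30.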

How the data were processed

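ATAC-seq of 12 samples in 4 groups of 3 was deposited as 2 tables, 1 per compound. Bowtie2, Picard, MACS2, deepTools, DiffBind and the build GRCz11 are named in the submitters' processing notes, with no role or version. Per the file headers, the authors gave each consensus region a log2 level over all libraries and for each group, a log2 fold, a p-value and its FDR. Tn5 shifting, the handling of duplicates and of reads with several matches, normalization and the engine of the test are not stated. The header of the DAC table names the treated group 5AzaC, and the labels' name is kept. There are 0 columns of single libraries, so a test on counts that had been foreseen was not run, and the adjusted p of the authors was used instead.

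Python 3.11.15, pandas 2.3.3 and scipy 1.17.1 were used, and the functions were tested on simulated data. Width is end minus start plus 1, and level per kb is the level minus the log2 of the width in kb. For like level, wider regions were weighted to 10 classes cut at quantiles of the narrow regions. Where several regions overlapped, the one sharing most bases was taken. The limit beside a count of 0 is 3 regions and covers counting error only.

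With under 5 calls in a direction, the 5 regions with the smallest unadjusted p in it are named. Also named are the 3 with the highest level, the narrowest, and the 5 places narrow in both tables with the highest smaller level. At the width limit, the regions with the highest level among those of exactly 499 bp (inside) and exactly 500 bp (outside) are named last. The last had levels of 5.39 (chr2:44991398-44991896) inside and 7.11 (chr14:40299613-40300112) outside for TDCIPP, and 5.55 (chr19:7156649-7157147) and 6.11 (chr6:14433803-14434302) for DAC, in the authors' deposited tables. Members, rules and alternatives were chosen with earlier results of these data known.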

Additional observations from a re-analysis of the deposited data

How the results depend on the processing

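No paired analysis was possible because values of single libraries were not at hand, and for the same reason leaving out replicates, other count tests, filters on low counts and other normalizations were not run. No narrow TDCIPP region was under 400 bp, so that limit gave no value there. The count of 0 called after TDCIPP held at adjusted p under 0.01 and 0.1 and with recomputed adjustment. With a limit of 600 bp it was 6, all among the 1108 regions from 500 to 599 bp. With all sequences it was 1 among 118 regions under 500 bp. Of all TDCIPP regions, 1.28% were called. The count of 0 after DAC held at 0.1 and with recomputed adjustment. At an unadjusted p under 0.01, 5.62% of narrow regions remained after TDCIPP and 0.0763% after DAC. DAC limits of 400 and 600 bp gave 4.44% and 1.10% with an unadjusted p under 0.05, 80.7% and 67.9% positive folds, and median log2 folds of 0.31 and 0.20. Positive DAC folds were 61.6% after the median of all regions was taken off and 84.2% at or above the median level. The excess of narrow over wider DAC regions at like level, 0.21, was 0.10 against regions of 500 bp to under 1 kb and reversed to -0.01 when matched on level per kb; the cause was not tested. Omitting the runs on chromosomes 1 and 6, with or without the further regions on chromosome 1, and keeping TDCIPP regions at or above the median level for the share with a small p (15.6%), were chosen after seeing the data. Narrow DAC regions held a median of 12.9 normalized reads, and 0 DAC regions of any level were called; the part of depth was not tested.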
